A study of Mus musculus with 9 samples.

Results

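Immediate early genes are switched on within minutes of a stimulus without new protein synthesis. Here 10 of them were read in the brain of mouse embryos: the transcription factor genes Fos, Fosb, Jun, Junb, Jund, Egr1 and Nr4a1, and Ier2, Ier3 and Dusp1. They were chosen by symbol, and each matched 1 Ensembl row among the 56748 genes of the count table. The tissue was embryonic whole brain at day 14 (E14), and each group had 3 libraries, 9 in all. Controls are labelled saline, and the design calls them wildtype. The exposed groups are labelled poly(I:C), a double-stranded RNA analog that acts as a mimic of viral infection, and valproic acid, an antiepileptic drug and histone deacetylase inhibitor. Both exposures serve as mouse models of autism spectrum disorder. The labels give no strain, dose, route, day of exposure, interval from exposure to dissection, litter or sex. Whether replicates are separate embryos or litters is not stated either, and the p-values therefore reflect the scatter among these libraries only, which may be technical.

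The products of these genes form connected circuits. Kinases of the ERK, JNK and p38 families and calcium signals act on factors already bound at the promoters, such as SRF with its ternary complex partners and CREB, and these start transcription. Fos and Jun proteins then pair through leucine zippers as AP-1, Egr1 is a zinc finger factor, and Nr4a1 is an orphan nuclear receptor; Dusp1 encodes a phosphatase that inactivates the same kinases. In the brain the group is used to mark recently active neurons, and it also responds to growth factors, stress and tissue handling.

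Promoters are shown for Jun, which rose under valproic acid, and for Fos, Nr4a1 and Dusp1, which gave no call and hold TGACG. The RefSeq promoter table (build GRCm38.p6, not the GRCm39 of the submitters' notes) held 8 of the 10 members, all but Egr1 and Ier2. The 250 bases before the annotated start are printed 5′ to 3′ on the gene's strand, from chr4:95052223-95052472 (minus strand), chr12:85473640-85473889 (plus), chr15:101266596-101266845 (plus) and chr17:26508473-26508722 (minus). Capitals mark TGACG, the half-site of the cAMP response element (CRE), on either strand, and TGACATCA, a variant at which ATF and Jun proteins bind.
Jun: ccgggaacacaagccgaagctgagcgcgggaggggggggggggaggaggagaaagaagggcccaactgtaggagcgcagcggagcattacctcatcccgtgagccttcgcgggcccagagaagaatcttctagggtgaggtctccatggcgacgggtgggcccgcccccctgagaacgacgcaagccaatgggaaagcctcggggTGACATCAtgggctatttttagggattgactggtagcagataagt
Fos: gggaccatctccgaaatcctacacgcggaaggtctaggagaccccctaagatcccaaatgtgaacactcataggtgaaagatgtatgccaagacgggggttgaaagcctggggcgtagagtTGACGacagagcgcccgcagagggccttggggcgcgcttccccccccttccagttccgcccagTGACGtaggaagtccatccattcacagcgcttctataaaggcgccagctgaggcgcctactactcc
Nr4a1: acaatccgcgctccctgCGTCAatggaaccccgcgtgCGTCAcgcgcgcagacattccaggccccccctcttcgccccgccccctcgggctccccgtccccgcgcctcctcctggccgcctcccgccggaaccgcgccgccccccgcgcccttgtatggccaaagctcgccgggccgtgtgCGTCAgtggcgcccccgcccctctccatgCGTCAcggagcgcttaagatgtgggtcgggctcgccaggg
Dusp1: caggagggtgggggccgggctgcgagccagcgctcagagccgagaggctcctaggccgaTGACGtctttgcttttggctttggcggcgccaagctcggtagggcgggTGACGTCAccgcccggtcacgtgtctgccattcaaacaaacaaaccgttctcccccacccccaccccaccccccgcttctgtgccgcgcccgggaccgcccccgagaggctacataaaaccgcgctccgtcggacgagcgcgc
Of 32851 promoters of this length 17.8% held TGACG on either strand, and 5 of the 8 members did: Fos, Fosb, Junb, Nr4a1 and Dusp1. Their windows were at 58.4% to 74.4% GC, against a median of 52.4% over all promoters. Jun held no TGACG, and neither did Jund and Ier3, which gave no call. Ier2, which also rose, had no promoter sequence here, so called and uncalled members cannot be compared by motif. Shares of motifs among promoters of matched GC content were not tested. Nr4a1 held 4 copies, starting 233, 213, 69 and 40 bases before the start, all on the reverse strand. Dusp1 held the full palindrome TGACGTCA 143 bases before its start, which contains a half-site on each strand; 1.55% of all promoters hold that palindrome. Jun held TGACATCA 45 bases before its start, a match found in 2.93% of promoters. The EGR site GCGNGGGCG was in Fosb and Nr4a1 (4.7% of promoters), where the copy in Nr4a1 is on the reverse strand. The AP-1 site TGACTCA (4.46% of promoters) and the CArG box bound by SRF (1.47%) were in 0 of the 8 windows, which says only that these letters are not in them.

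By GENCODE release M21, Jun, Jund and Ier2 had single-exon transcripts only, as have 6.1% of protein-coding genes, whereas Nr4a1 had transcripts of up to 8 exons. On the opposite strand, Junb overlaps Prdx2, a peroxidase gene with 10260 to 13843 counts per library, against 73 to 114 for Junb. Dusp1 likewise overlaps Ergic1, with 2357 to 3037 counts. Jun overlaps the antisense gene Junos, with 10 to 25 counts. Strandedness of the counting is not stated for these data, and reads in the overlaps of Junb and Dusp1 cannot be assigned with certainty.

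The 10 members covered a wide range of levels in control brain. Values in CPM (counts scaled to library size after TMM) divided by the length of all annotated exons in kilobases gave 41.8 CPM per kb for Jund and 24.4 for Jun, the highest. Among the 16902 tested genes with a length, 93.4% lay below Jund and 87% below Jun. Dusp1 (11.7 CPM per kb) and Ier2 (11.6) came next, and their control ranges overlapped (11.5 to 11.9 and 10.9 to 12.8). Junb (2.46), Nr4a1 (2.05) and Ier3 (1.82) formed a lower tier in which each overlapped its neighbour, at 2.4 to 2.51, 1.77 to 2.41 and 1.2 to 2.15 CPM per kb. Egr1 (0.921), Fos (0.413) and Fosb (0.0433) were lowest, with ranges apart from each other and from the tier above. Of the tested genes 9.48% lay below Fos. Jund is known for steady expression, and Fos, Fosb and Egr1 for low levels in the absence of a stimulus.

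In the Jun family, Jun rose under valproic acid. It encodes the main DNA-binding partner of Fos in AP-1 and is the chief target of JNK. It was at 77.2, 79 and 77.6 CPM in control replicates 1 to 3, at 94.6, 83.5 and 93.3 CPM after poly(I:C), and at 91.4, 103 and 92.5 CPM after valproic acid. Every exposed library lay above every control library, and the exposed groups overlapped each other. Against control the mean (± SD, n = 3) went from 77.9 ± 0.965 to 95.6 ± 6.36 CPM under valproic acid, a 1.23-fold rise (log2 change 0.29, SE 0.0579, edgeR adjusted p = 0.00897). This call was lost with Y-linked expression (log2 change 0.28, SE 0.075, edgeR adjusted p = 0.0856) or Xist (0.23, SE 0.108, adjusted p = 0.539) as a covariate. The SE was larger in both fits. Xist was high in every valproic acid library and low in every control, so losing the call does not separate sex from exposure. Under poly(I:C) the mean was at 90.4 ± 6.07 CPM, a log2 difference of 0.21 (SE 0.0578) that was not called (edgeR adjusted p = 0.138). Valproic acid differed from poly(I:C) by 0.081 on the log2 scale, with a 95% interval of -0.042 to 0.2. Both comparisons with control share the same 3 controls, which lay closer together (coefficient of variation, CV, 1.24%) than counting error alone gives (2.65%).

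Junb and Jund, the paralogs of Jun, gave no call. Junb, a factor that can restrain Jun activity, was at 5.79, 5.53 and 5.67 CPM in control, 4.07, 4.01 and 5.95 CPM after poly(I:C), and 6.07, 5.89 and 6.94 CPM after valproic acid. All 3 valproic acid libraries lay just above the controls, while poly(I:C) replicate 3 stood with the valproic acid libraries and the other poly(I:C) libraries lay below every other library. The contrast of valproic acid with poly(I:C) was 0.43 on the log2 scale (95% interval 0.073 to 0.79, unadjusted p = 0.022 and adjusted p = 0.2 by edgeR). With Y-linked expression as a covariate this contrast was 0.26 (edgeR adjusted p = 0.649), and with Xist 0.083 (0.933). Jund was at 64.9, 71 and 73.1 CPM in control, 68.8, 66.4 and 64.1 CPM after poly(I:C), and 58.1, 67.7 and 61 CPM after valproic acid, with overlap between all groups. Its difference between valproic acid and control was -0.16 on the log2 scale (95% interval -0.3 to -0.028; unadjusted p = 0.021 and adjusted p = 0.14 by edgeR), opposite in sign to that of Jun.

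**Figure D1:**
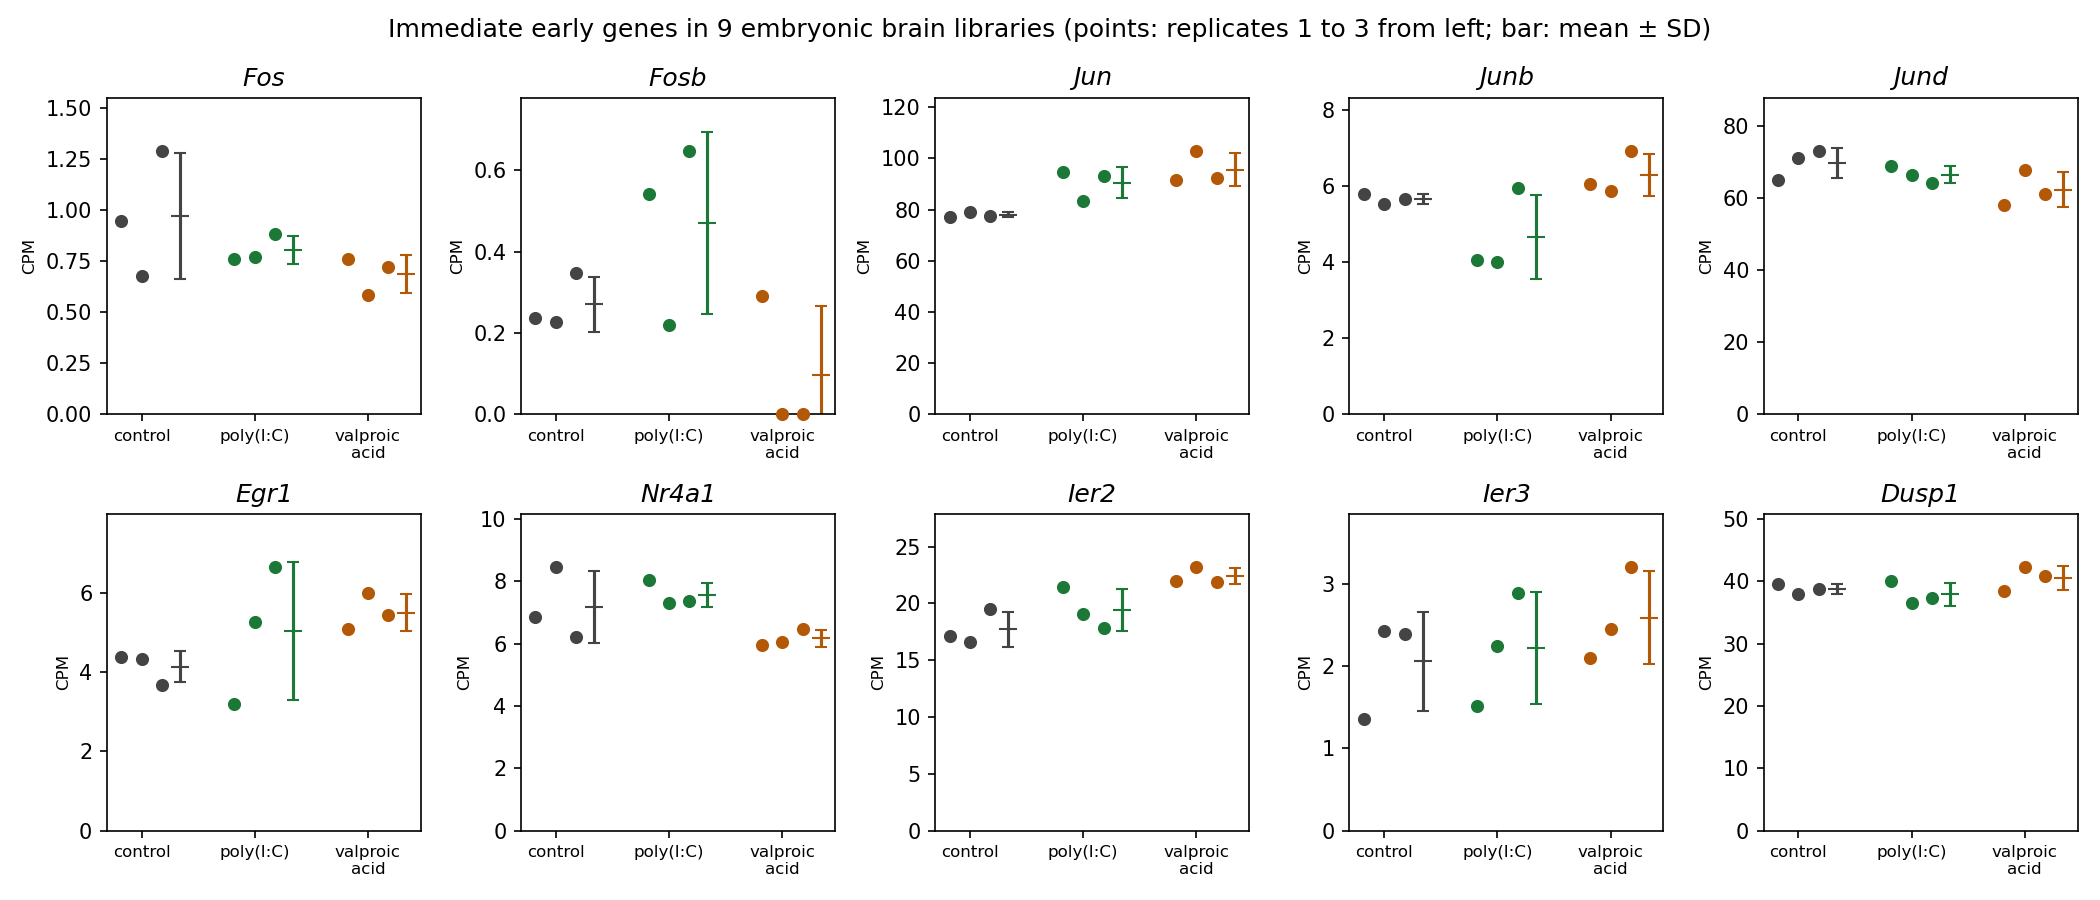
Expression of the 10 members in CPM (each vertical axis from 0, with its own range), with replicates 1 to 3 of each group from left to right and the mean ± SD beside them (the lower bar of Fosb under valproic acid is clipped at 0). The 3 Jun controls at 77.2 to 79 CPM lie below all 6 exposed libraries, and Fosb is at 0 in 2 valproic acid libraries.

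Fos and Fosb, the Fos family members in the set, were close to the limit of detection. Fos, which has to pair with a Jun protein to bind DNA, had 16, 12 and 26 reads in control, 14, 14 and 15 after poly(I:C), and 13, 10 and 11 after valproic acid. In CPM these were 0.945, 0.677 and 1.29, then 0.759, 0.769 and 0.883, then 0.759, 0.583 and 0.72. Control replicate 3 was the highest library and valproic acid replicate 2 the lowest, 2.22-fold apart. The group sums of 54, 43 and 34 reads gave exact 95% Poisson intervals of 0.741 to 1.29, 0.58 to 1.08 and 0.475 to 0.959 CPM, which overlap and cover counting error only. No comparison called Fos: against control the log2 difference was -0.51 (95% interval -1.28 to 0.25) for valproic acid and -0.28 (-1.02 to 0.45) for poly(I:C). A ratio of valproic acid to control from 0.413 to 1.19 is therefore within the interval at this depth.

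Fosb, whose truncated splice form accumulates in chronically stimulated neurons, was the only member below the filter on low counts and was not tested. It had 4, 4 and 7 reads in control, 10, 4 and 11 after poly(I:C), and 5, 0 and 0 after valproic acid. The group sums were 15, 25 and 5 reads, with exact 95% Poisson intervals of 0.153 to 0.452, 0.302 to 0.688 and 0.0328 to 0.235 CPM. The intervals of poly(I:C) and valproic acid do not overlap, but the libraries do: valproic acid replicate 1 (0.292 CPM) lay above poly(I:C) replicate 2 (0.22 CPM). With no filter on low counts edgeR gave a log2 difference of -2.15 between these groups (SE 0.857, adjusted p = 0.168), which was not called.

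Egr1 and Nr4a1 were low, with 19.2% and 31.5% of tested genes below them in CPM per kb in control. Egr1, a zinc finger factor induced through SRF sites, was at 4.37, 4.34 and 3.68 CPM in control, 3.2, 5.27 and 6.65 CPM after poly(I:C), and 5.08, 6 and 5.43 CPM after valproic acid. Both the lowest and the highest of the 9 libraries were poly(I:C) libraries, replicates 1 and 3, 2.08-fold apart. The valproic acid libraries all lay above the controls, yet the log2 difference of 0.42 (95% interval -0.051 to 0.89) was not called (edgeR adjusted p = 0.287). Nr4a1, also known as Nur77, was at 6.85, 8.46 and 6.22 CPM in control, 8.03, 7.3 and 7.36 CPM after poly(I:C), and 5.96, 6.06 and 6.48 CPM after valproic acid. All valproic acid libraries lay below all poly(I:C) libraries, with control replicate 3 among the valproic acid values. That difference was -0.3 on the log2 scale (unadjusted p = 0.052 and adjusted p = 0.31 by edgeR).

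Ier2 rose under valproic acid, while Ier3 and Dusp1 gave no call. Ier2, a nuclear protein gene induced by growth factors, was at 17.1, 16.6 and 19.5 CPM in control, 21.4, 19.1 and 17.8 CPM after poly(I:C), and 22, 23.2 and 21.9 CPM after valproic acid. The valproic acid libraries lay above all 6 others, and the control and poly(I:C) libraries overlapped. From control to valproic acid the mean went from 17.7 ± 1.54 to 22.4 ± 0.734 CPM (mean ± SD, n = 3), a 1.26-fold rise (log2 change 0.33, SE 0.0908, edgeR adjusted p = 0.0402). The call was lost with Y-linked expression (log2 change 0.32, SE 0.112, edgeR adjusted p = 0.166) or Xist (0.52, SE 0.16, adjusted p = 0.301) as a covariate. It was lost in 5 of 6 fits without 1 library. It was also lost with the replicate number as a block (edgeR adjusted p = 0.0609). Against poly(I:C), at 19.4 ± 1.82 CPM, valproic acid differed by 0.2 (unadjusted p = 0.04 and adjusted p = 0.27 by edgeR).

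Ier3, an inhibitor of apoptosis induced by NF-kB and ERK signals, was at 1.36, 2.43 and 2.39 CPM in control, 1.52, 2.25 and 2.89 CPM after poly(I:C), and 2.1, 2.45 and 3.21 CPM after valproic acid. All groups overlapped, and the interval of valproic acid against control ran from a ratio of 0.811 to 1.91. Dusp1 was the steadiest member, at 39.6, 38 and 38.8 CPM in control, 40, 36.5 and 37.3 CPM after poly(I:C), and 38.5, 42.3 and 40.8 CPM after valproic acid. Its highest library exceeded its lowest by 1.16-fold. The 95% intervals put its ratio to control between 0.958 and 1.14 for valproic acid and between 0.897 and 1.07 for poly(I:C), so larger differences lie outside them.

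Across the set, 2 of the 9 tested members (10 in all) rose under valproic acid and 0 fell, where 3.57% of all 17171 tested genes rose and 2.78% fell, 6.35% in all. The members that rose were Jun and Ier2. At an unadjusted p under 0.05 Jund, which lay lower (log2 difference -0.16), passed as well (3 of 9, where 22.1% of all tested genes passed). The DESeq2 Wald test, which gave an adjusted p to 8 members, called the same pair of genes. The count was 1 in 5 of the 6 fits without 1 library and with the replicate number as a block, and 0 with either sex-linked covariate. The median log2 difference of the 9 was 0.15, against -0.0033 over all tested genes, with 6 values above 0 and 3 below. In 4 members, Jun, Junb, Egr1 and Ier2, all valproic acid libraries lay above all controls, and in 0 below, where 12.6% and 13.0% of all tested genes did.

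For poly(I:C) against control, 0 of 9 members were called by edgeR and 0 of the 8 with an adjusted p by DESeq2, where edgeR called 0.536% of all tested genes, 0.262% higher and 0.274% lower. At an unadjusted p of 0.05 there was 1 member, Jun, where 12% of all genes passed, and Jun was also the member with groups apart (9.60% of all genes lay higher without overlap and 8.83% lower). The median log2 difference was 0.078, against -0.003 over all genes. For valproic acid against poly(I:C), 0 of 9 were called by edgeR and 0 of the 7 with an adjusted p by DESeq2, where edgeR called 2.59% of all genes (1.42% higher and 1.18% lower), and 2 (Junb and Ier2) had an unadjusted p under 0.05, as had 16.6% of all genes. Ier2 lay higher in all valproic acid libraries, and Nr4a1 and Fos lower, Fos by less than the printed rounding; of all genes 10.5% lay higher and 11.4% lower in this way. In bulk brain, fewer cells that express a gene and less RNA per cell cannot be told apart.

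**Figure D2:**
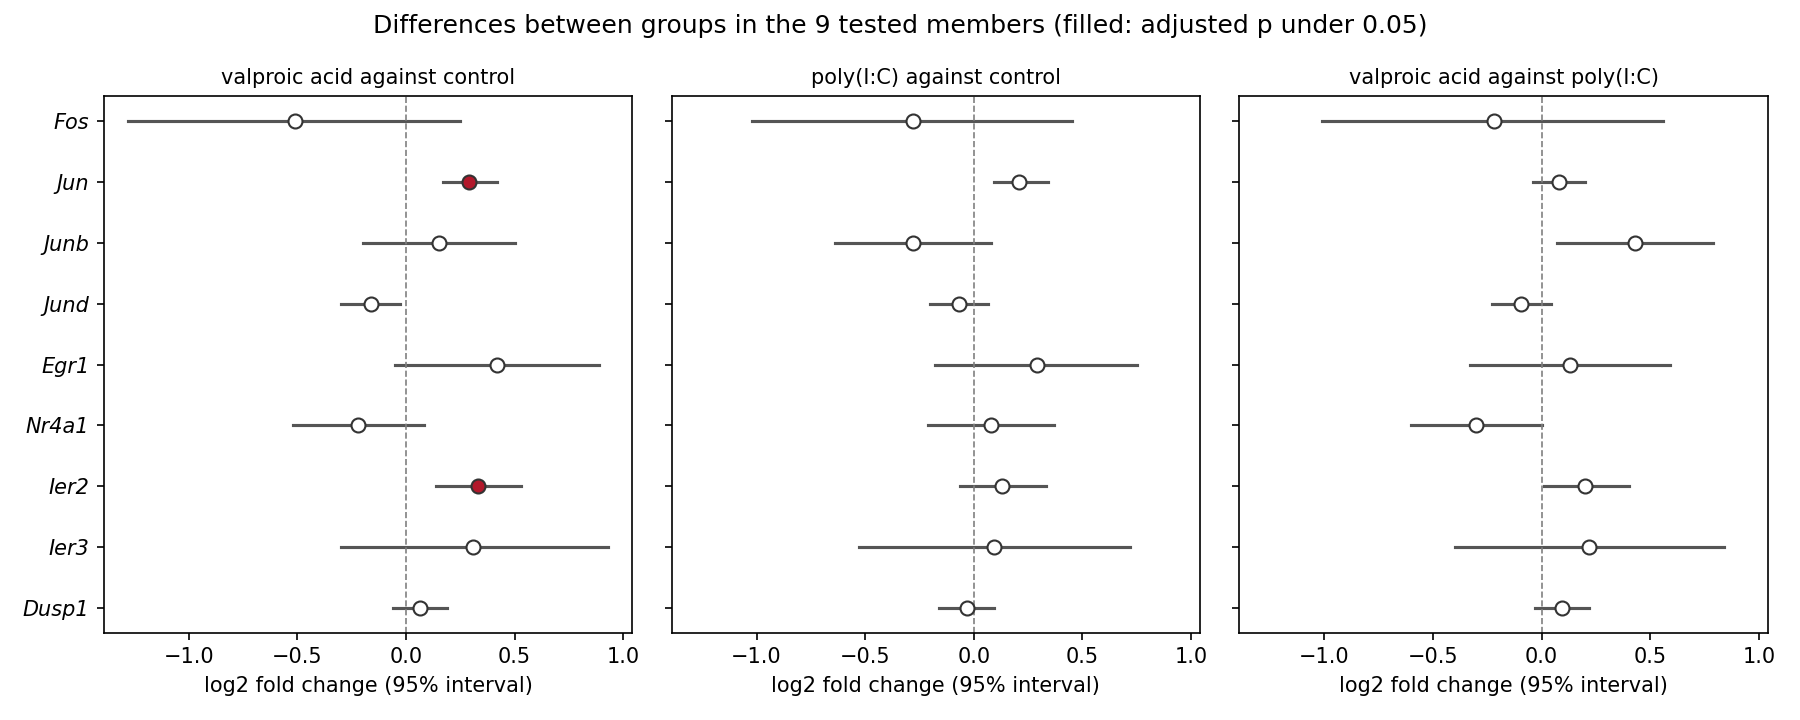
Log2 fold change of the 9 tested members in each comparison with its 95% interval; filled points are called at an adjusted p under 0.05 (edgeR), and the dashed line marks no difference. Jun at 0.29 and Ier2 at 0.33 under valproic acid against control are the filled points, and the interval of Fos is the widest.

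How far the libraries of a group differed depended on the gene. The CV over 3 libraries exceeded what counting alone gives in 18 of 30 pairs of a member and a group, and by more than 2 times in 7. Egr1 after poly(I:C) had a CV of 34.5% against 10.6% from counting, and Junb there 23.6% against 11%. Jun had 6.72% after poly(I:C) and 6.65% after valproic acid against 2.49% and 2.51%. The remaining pairs over 2 times were Jund in control and after valproic acid and Fosb after valproic acid. For Fos the CV was 31.8% in control, near its counting error of 23.6%, and 8.59% after poly(I:C), under its counting error of 26.4%. With 3 libraries a CV is itself imprecise.

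**Figure D3:**
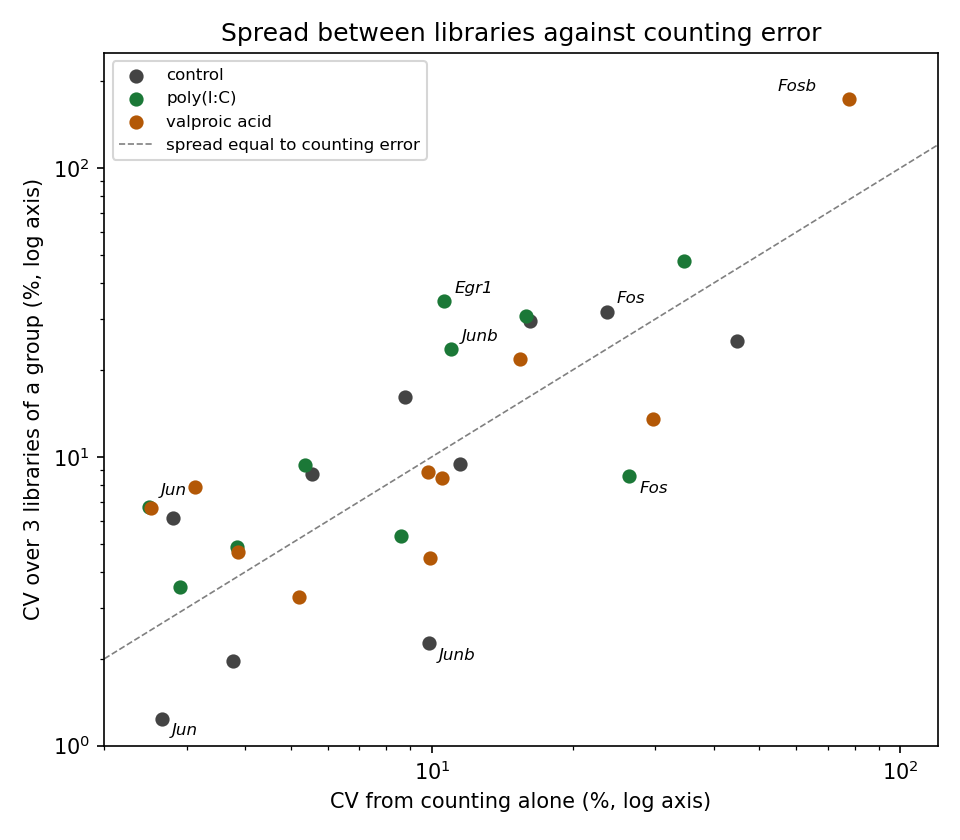
CV over the 3 libraries of a group (vertical, log axis) against the CV that counting alone gives (horizontal, log axis), 1 point per member and group; the dashed line marks equality. Egr1 and Junb after poly(I:C) lie above the line at 34.5% and 23.6%, and Jun in control lies below it at 1.24%.

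Sex-linked transcripts moved with the groups. Levels of Xist, the RNA that coats an inactive X chromosome in female cells, reached 981 to 1060 CPM in poly(I:C) replicate 3 and every valproic acid library, and 0.236 CPM or less elsewhere. Ddx3y, Uty, Kdm5d and Eif2s3y, all Y-linked, summed to 196 to 201 CPM in replicates 1 and 2 of the control and poly(I:C) groups and to 0 elsewhere, so control replicate 3 showed neither signal. With Y-linked expression as a covariate the log2 change of Jun under valproic acid was 0.28 (edgeR adjusted p = 0.0856) and that of Ier2 0.32 (0.166). With Xist as the covariate they were 0.23 (0.539) and 0.52 (0.301), and neither was called. The SE of Jun was 0.0579 as reported, 0.075 with Y-linked expression and 0.108 with Xist. The SE of Ier2 was 0.0908, 0.112 and 0.16 in the same order. Within groups, Xist differed markedly only in poly(I:C) replicate 3, so its adjustment rests almost wholly on that library. For valproic acid against control, sex and exposure cannot be told apart. Between the exposures they are told apart in part only, since poly(I:C) replicate 3 alone shares the Xist signal of the valproic acid libraries. Poly(I:C) replicate 3 was the highest poly(I:C) library for Egr1, Junb, Fos, Fosb and Ier3, but not for Jun, Jund, Ier2, Nr4a1 or Dusp1. That is 1 library. A part of sex in these values was not tested beyond the fits with a covariate, and the Xist fit rests on that library. In the 4 Y-positive libraries alone poly(I:C) differed from control by 0.19 in Jun (SE 0.071, edgeR adjusted p = 0.456). The difference of Egr1 there was -0.041 (SE 0.26, edgeR adjusted p = 0.98), and neither was called.

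Jun remained called when any 1 of the 6 libraries compared was left out (log2 change 0.24 to 0.33, highest edgeR adjusted p 0.0373). That of Ier2 was kept only without control replicate 3 (0.41, adjusted p = 0.0334). It was lost without control replicate 1 (adjusted p = 0.135) or 2 (0.128), and without valproic acid replicate 1 (0.0746), 2 (0.109) or 3 (0.0745). Its log2 change stayed between 0.29 and 0.41 in these fits. The difference of Jun under poly(I:C) was called in 1 of 16 alternatives, with no filter on low counts (log2 change 0.21, adjusted p = 0.0117).

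**Figure D4:**
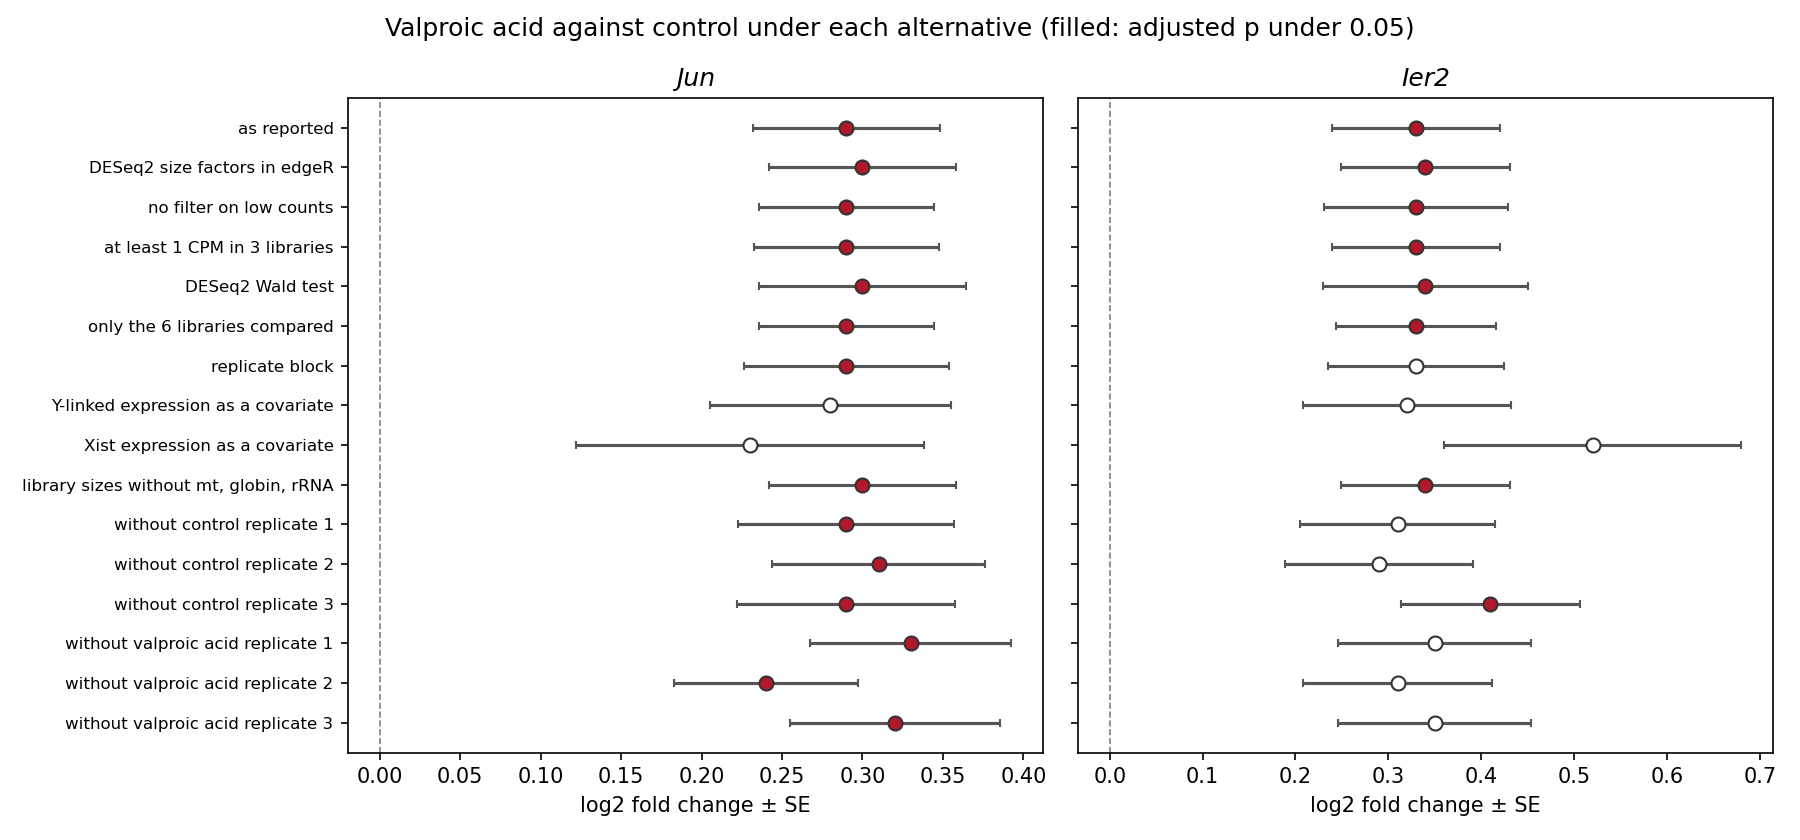
Log2 fold change ± SE of Jun (left) and Ier2 (right) for valproic acid against control, as reported and under each alternative; filled points are called at an adjusted p under 0.05. All values lie above 0, the points of Jun are open only with the sex covariates, and those of Ier2 are open with them, with the replicate block and without any library but control replicate 3.

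The relatives of the members were read from a list of 14 other AP-1, EGR and NR4A factors, of which 10 passed the filter. EdgeR called 0 of them in any comparison, and DESeq2 0 of the 7 or 8 to which it gave an adjusted p. Fosl1, Egr2, Egr4 and Batf did not pass, and Egr4 had at most 2 reads in a library. The nuclear receptors related to Nr4a1 lay lowest after valproic acid. Nr4a3 was at 37.1, 40.5 and 34.4 CPM in control, 36, 38.1 and 40.8 CPM after poly(I:C), and 31.3, 32.5 and 33.6 CPM after valproic acid (log2 difference from control -0.2, edgeR adjusted p = 0.11). Nr4a2, a factor of dopamine neurons, was at 40.6 to 45.9 CPM after poly(I:C) and 33.9 to 37.7 CPM after valproic acid (log2 difference -0.25, edgeR adjusted p = 0.092). Fosl2, a Fos relative, was at 22.9 to 29.5 CPM in control and 20.6 to 22.8 CPM after valproic acid (edgeR adjusted p = 0.14). In this list 3 of 10 genes had an unadjusted p under 0.05 for valproic acid against control, 2 for poly(I:C) against control and 3 between the exposures, where 22.1%, 12% and 16.6% of all tested genes did.

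Of 32 other rapidly induced genes, 2 rose and 1 fell under valproic acid, where 3.57% of all tested genes rose and 2.78% fell. Btg2, an antiproliferative gene of neurogenic progenitors, rose from 53.8 ± 2.26 to 70.5 ± 3.7 CPM (mean ± SD, n = 3; edgeR adjusted p = 0.0049). Gadd45g, a stress gene that is also active in differentiating progenitors, rose from 58.9 ± 4.76 to 74.2 ± 3.44 CPM (edgeR adjusted p = 0.006). Plk2, a kinase induced by neuronal activity, fell from 128 ± 3.53 to 115 ± 4.17 CPM (edgeR adjusted p = 0.047). The median of this list was 0.029. For poly(I:C) against control and between the exposures edgeR called 0 of 32, and DESeq2 0 of the 32 and 29 with an adjusted p. At an unadjusted p under 0.05 there were 5 and 7, beside 12% and 16.6% of all genes; Btg2 was at 63.3 ± 6.33 CPM after poly(I:C).

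Genes that mark neuronal activity gave 0 calls by edgeR in any comparison, and 0 by DESeq2 among the 10 to 15 with an adjusted p. Of 16 on the list 15 were tested, with 2, 2 and 1 at an unadjusted p under 0.05 for valproic acid against control, poly(I:C) against control and valproic acid against poly(I:C), beside 22.1%, 12% and 16.6% of all genes. Arc, a synaptic immediate early gene named after its values were seen, was at 3.78 to 5.13 CPM in control, 3.83 to 5.59 CPM after poly(I:C) and 3.26 to 4.85 CPM after valproic acid. Nrn1, a membrane protein that promotes neurite growth, was at 36.3 to 40.8 CPM in control and 34.4 to 35.2 CPM after valproic acid (log2 difference -0.15, edgeR adjusted p = 0.17). Cartpt, a neuropeptide gene, was at 0.564 to 0.896 CPM in control and 0.934 to 2.16 CPM after valproic acid (edgeR adjusted p = 0.15).

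Among feedback regulators, 0 of 15 phosphatase, Sprouty and Spred genes were called in any comparison by edgeR, and 0 of the 13 to 15 with an adjusted p by DESeq2. At an unadjusted p under 0.05 there were 3, 3 and 2, beside 22.1%, 12% and 16.6% of all genes. Dusp16, a phosphatase of JNK and p38, had a log2 difference of 0.19 between valproic acid and control (95% interval 0.046 to 0.33, edgeR adjusted p = 0.11). Dusp5, a phosphatase specific for ERK, was at 0.846 to 1.47 CPM in control and 1.98 to 2.39 CPM after valproic acid (log2 difference 0.85, 95% interval 0.16 to 1.56, edgeR adjusted p = 0.13). Upstream, 2 of 18 genes of the SRF, ternary complex and CREB list rose and 1 fell under valproic acid, where 3.57% of all tested genes rose and 2.78% fell. Those that rose were the acetyltransferases Ep300 (from 135 ± 5.6 to 163 ± 12.8 CPM, edgeR adjusted p = 0.0088) and Crebbp (from 117 ± 3.22 to 131 ± 1.57 CPM, adjusted p = 0.027), which act as coactivators of CREB and AP-1. Mef2c, an activity-regulated factor of neurons, fell from 118 ± 7.79 to 98.4 ± 3.23 CPM (edgeR adjusted p = 0.022). Of 20 tested ERK and JNK pathway kinases (21 listed) edgeR called 1, Mapk9, which encodes JNK2 and fell from 104 ± 2.34 to 90.2 ± 0.407 CPM (edgeR adjusted p = 0.011). DESeq2 called Mapk9 lower as well, and in addition Mapk3, which encodes ERK1, higher (log2 difference 0.21, edgeR adjusted p = 0.088). In these calls under valproic acid, too, sex and exposure cannot be told apart. For poly(I:C) against control and between the exposures edgeR and DESeq2 called 0 genes of both upstream lists, with 5 and 5 of 18 and 2 and 4 of 20 at an unadjusted p under 0.05, beside 12% and 16.6% of all genes.

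Other cell and stress signals moved beside Jun and Ier2, and their part in these results was not tested. The counts that follow are edgeR calls for valproic acid against control, where 3.57% of all tested genes rose and 2.78% fell. Sex and exposure cannot be told apart in them. Of 14 heat shock genes Hsp90ab1 and Hspa8 rose under valproic acid (log2 change 0.13 and 0.18, edgeR adjusted p = 0.019 and 0.031). Against control the log2 difference was above 0 in 10 of the 14 for valproic acid (median 0.09) and below 0 in 4. For poly(I:C) it was above 0 in 6 (median -0.0049) and below 0 in 8. The summed list was at 5590 to 5650 CPM in control, 5800 to 6090 CPM after poly(I:C) and 5820 to 6240 CPM after valproic acid. Of 10 intermediate progenitor markers 7 rose, and their sum was at 753 to 792, 786 to 830 and 925 to 983 CPM in the same order. Of 10 radial glia markers 4 rose (1950 to 2000, 2010 to 2080 and 2120 to 2210 CPM), and of 12 postmitotic neuron markers 4 fell (8050 to 8250, 8040 to 8400 and 7360 to 7810 CPM). These 3 lists, which mark the labelled tissue, had 0 genes at 0 in any library. Btg2 is on the list of intermediate progenitor markers as well as that of rapidly induced genes. Against control, poly(I:C) gave 1 edgeR call in these lists, Neurog2 of the intermediate progenitor markers (higher), where 0.262% of all genes were higher. Between the exposures 5 intermediate progenitor markers and 1 radial glia marker were higher after valproic acid, and 3 neuron markers lower. Of all genes 1.42% were higher and 1.18% lower in that comparison, and 0 heat shock genes were called.

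Blood and vessel cells also express immediate early genes. Counts are again edgeR calls for valproic acid against control, beside 3.57% of all tested genes higher and 2.78% lower. Again sex and exposure cannot be told apart in them. Of 10 erythroid markers 4 rose under valproic acid (summed 1790 to 2090 CPM in control, 1390 to 2020 CPM after poly(I:C) and 2260 to 2620 CPM after valproic acid). Of 10 endothelial markers 1 rose (358 to 372, 341 to 358 and 359 to 392 CPM). Of 9 tested mural and fibroblast markers (10 listed) 2 fell, Acta2 and Rgs5 (summed list at 791 to 840, 702 to 736 and 773 to 963 CPM). The log2 difference was above 0 in 7 of the 9, with a median of 0.14, and DESeq2 also called Lum higher. Of 12 microglia and macrophage markers 2 fell (131 to 138, 116 to 126 and 117 to 126 CPM). Choroid plexus markers gave 0 calls of 8 by edgeR, and 0 of the 7 with an adjusted p by DESeq2, in each comparison, with 0 at an unadjusted p under 0.05 (540 to 689, 568 to 644 and 582 to 648 CPM). Under poly(I:C) edgeR called 0 genes of these blood and vessel lists, beside 0.536% of all genes. Between the exposures 8 erythroid, 1 endothelial and 4 mural and fibroblast markers were higher after valproic acid, beside 1.42% of all genes. In the same comparison 1 mural and fibroblast marker was lower, beside 1.18%, and DESeq2 alone called P2ry12 of the microglia list lower. The whole set of 10 immediate early genes summed to 218 to 229, 225 to 243 and 230 to 257 CPM.

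Genes with the profile most like that of Fos and of Egr1 were found by the root mean square difference between log2 CPM values centred on their mean over the 9 libraries, among 15362 other genes whose mean was 1 CPM or more. For Fos the closest were Gm41077 (0.0751), 5033417F24Rik (0.0848), Stc1 (0.123), Lyrm1 (0.123) and Mtcp1 (0.126), where the log2 values of Fos had an SD of 0.29. For Egr1 (SD 0.329) the closest included Gsap (0.145), Akr1b8 (0.149), Tacc1 (0.152) and R74862 (0.158). None of those named belongs to the lists of rapidly induced genes. With 9 libraries and few reads for Fos, closeness of this kind is a description of these libraries.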

How the data were processed

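Total RNA was column-purified, ribosomal RNA was removed and an NEB kit was used for the libraries, per the labels. The authors deposited raw read counts per Ensembl gene; per the submitters' processing notes, HISAT2 and the build GRCm39 (mm39) were used. For the counting tool, strandedness and gene annotation, the sources used here give nothing. Totals were 15399974 to 19883131 counts per library. Libraries of 1 group differed beyond sampling noise (chi-square over degrees of freedom 3.84 to 6.28), and each was counted separately.

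Symbols and exon lengths came from GENCODE M21, which left 4675 rows without one; promoters came from RefSeq. A filter on low counts (filterByExpr, edgeR 4.0.16, minimum count 10 and minimum total 15) kept 17171 genes; TMM factors were 0.977 to 1.02. All 9 libraries were fitted with a mean per group, and groups were compared by the two-sided quasi-likelihood F-test. A call is a p under 0.05 after Benjamini-Hochberg adjustment across the tested genes. CPM values use the TMM factors, intervals are 95%, and log2 profiles use a prior count of 2. R was 4.3.3 and DESeq2 1.42.0. The method was tested on simulated data. The members and lists were chosen with earlier results of these data known. Members were named throughout, and of other lists up to 4 called genes with the smallest adjusted p, or up to 2 as values where none was called; Arc, Egr4, Fosl1, Egr2 and Batf were named after their values were seen. Of the genes most like Egr1, 1 is not reported here. Alternatives were DESeq2 size factors, other filters, DESeq2, only the libraries compared, a replicate block, sex covariates, other library sizes and leaving out each library.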

Additional observations from a re-analysis of the deposited data

How the results depend on the processing

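Of 411 values of member log2 differences under alternatives, 385 kept direction and call, 10 lost a call, 1 gained one and 15 changed sign; the cause was not tested, except that fits without a library hold fewer samples. Members called under valproic acid (2 as reported) numbered 1 with the replicate block (Ier2 was lost, edgeR adjusted p = 0.0609), 0 with Y-linked expression or Xist as a covariate, and 1 to 2 without 1 library. For poly(I:C) against control, 1 member was called with no filter; it stayed at 0 in fits without 1 library, and between the exposures under all alternatives. Same-numbered libraries correlated at -0.042 to 0.13 in their deviations, over 0.1 in 1 of 9 pairs, and 3 of 9 libraries correlated best with their own number. The pair over 0.1 was control and poly(I:C) replicate 3, which lack Y-linked signal. With so few libraries these correlations cannot decide whether the numbers pair the samples.

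Over all genes, valproic acid against control called 1090 genes, 1661 with no filter, 272 with the Y-linked and 19 with the Xist covariate, and 467 to 789 without 1 library. Poly(I:C) against control called 92, 464 with no filter, 170 by DESeq2, 42 with Xist, 60 in Y-positive libraries and 38 to 63 without 1 library. Valproic acid against poly(I:C) called 445, 1057 with no filter, 111 and 39 with the Y-linked and Xist covariates, and 112 to 294 without 1 library.

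No called member changed sign. For valproic acid against control, Junb was at -0.03 with the Y-linked covariate and -0.41 with Xist, Egr1 at -0.24 and Ier3 at -0.28 with Xist. For poly(I:C) against control, Ier3 was at -0.13 with Xist, -0.12 without control replicate 1, -0.13 without poly(I:C) replicate 3 and -0.011 in Y-positive libraries. There Egr1 was at -0.041, and Nr4a1 was at -0.018 without control replicate 3. For valproic acid against poly(I:C), Egr1 and Ier3 were at -0.012 and -0.076 with the Y-linked covariate, -0.27 and -0.15 with Xist, and Egr1 at -0.11 without poly(I:C) replicate 1. The fits without 1 library gave -0.13 to 0.31 for Ier3 and -0.018 to 0.21 for Nr4a1 (poly(I:C) against control), and -0.11 to 0.38 for Egr1 between the exposures. Fos could not be fitted at 1 CPM in 3 libraries, where it did not pass. DESeq2 gave no adjusted p for Fos or, between the exposures, for Ier3. Depth limits Fos and Fosb most.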
